A study of Mus musculus with 6 samples.

Results

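Cell surface proteins are the handles by which mammary epithelial cells are sorted, and 9 of the genes that encode such markers were examined in the RNAseq counts of 2 mouse mammary tumour cell lines. The genes were chosen by name as markers of mammary and tumour cell fractions, and are Epcam, Cd24a, Cd44, Ly6a, Cd14, Kit, Prom1, Muc1 and Thy1. All 9 were found among the 52636 counted genes, and 7 of them passed the filter on low counts and were tested with 12284 genes in all. Kit and Thy1 did not pass.

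The data hold 3 biological replicates of J110 cells and 3 of SSM3 cells. J110 cells came from mice with an AIB1 cDNA transgene driven by the MMTV LTR, and SSM3 cells from mammary tumours of 129SvEv mice. Each line is a single cell line, and the cultures differed. Medium for J110 held 5% FBS at 5% CO2, and medium for SSM3 held 10% FBS at 10% CO2 with added holo-transferrin and β-mercaptoethanol. Genotype, strain background and culture therefore cannot be told apart.

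In the mouse mammary gland, EpCAM is high on luminal cells, lower on basal cells and absent from stroma, so that EpCAM and the α6 integrin CD49f together separate the 3 compartments. CD24 and CD44 are used in the same way, since luminal cells carry more CD24 and basal cells and fibroblasts more CD44. Sca-1, the product of Ly6a, marks the hormone-sensing luminal cells, whereas CD14, KIT and prominin-1 have been used to divide luminal cells into progenitor and mature fractions. MUC1 coats the apical face of luminal cells, and THY1 (CD90) marks stromal and some basal cells. CD24, Sca-1, CD14 and THY1 have no membrane-spanning segment and are held in the membrane by a glycosylphosphatidylinositol (GPI) anchor.

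Total counts ranged from 4200785 to 5416305 per library. Counts were scaled to CPM, a unit that sets every library to the same total, with edgeR's TMM factors. In these 3′ end libraries a transcript gives about 1 read whatever its length, but 3′ ends are captured unequally. Levels of different genes were summed, ranked or set side by side only as a description of the counts. Fold changes are SSM3 against J110, tested by the quasi-likelihood method of edgeR. P-values were adjusted over all genes tested, SE is the standard error, and a call is an adjusted p below 0.05. Of all genes tested, 77.9% were called, 38.6% higher and 39.2% lower in SSM3, so a call by itself does not set a gene apart. The ribosomal RNA locus took 15.1% to 17.2% of the counts in J110 and 0.779% to 1.27% in SSM3, and all 7 markers tested kept their calls without it. Counts of Ncoa3, the mouse gene for AIB1, were 110, 106 and 102 in libraries labelled J110 and 181, 199 and 186 in those labelled SSM3. Ncoa3 was thus not higher in the line with the transgene, but 3′ end reads need not fall within the transgene's cDNA. J110 and SSM3 stand here for the labels, on which every direction rests.

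Of the 7 surface markers tested, all were called (7 of 7, where 77.9% of all genes were), and in none did the ranges of J110 and SSM3 overlap, as for 79.6% of all genes tested. Epcam, Prom1, Muc1, Ly6a and Cd24a were higher in SSM3, and Cd44 and Cd14 were lower. Of the 7, 4 were called with a change of at least 4-fold, where 21.7% of all genes tested were. Epcam, Prom1 and Muc1 passed the filter only through SSM3, where they are high, so that these 3 had to differ, and the same holds for every gene below that is near 0 in one of the lines. In whole cultures, fewer cells with a transcript and less of the transcript per cell cannot be told apart.

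**Figure D1:**
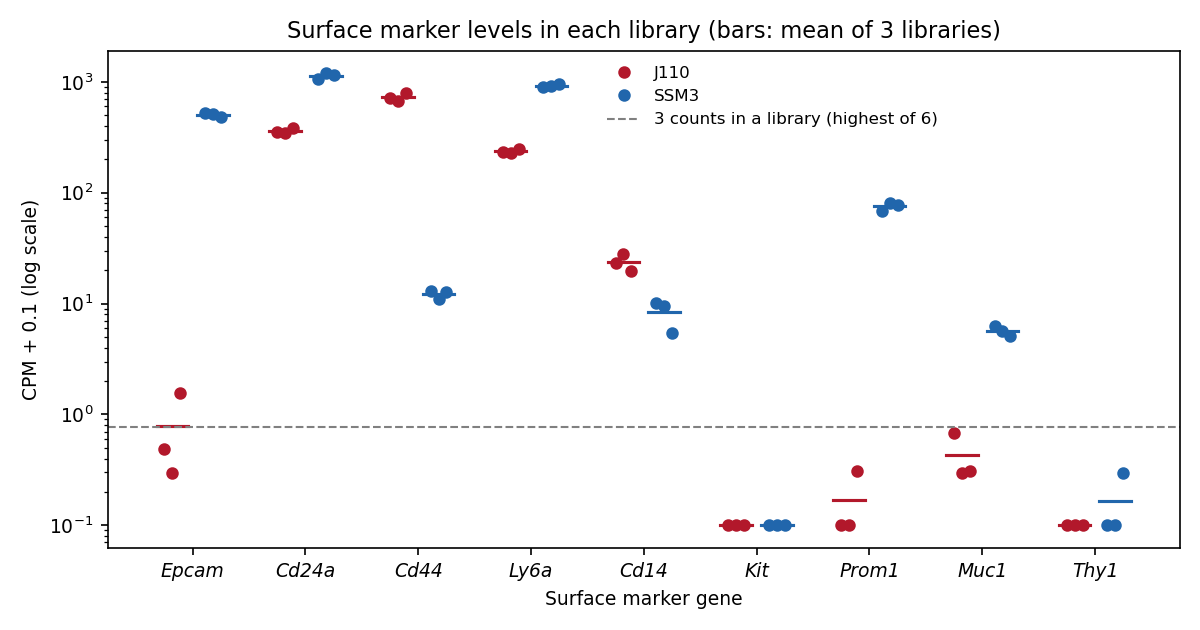
Level of each surface marker gene in every library, as CPM plus 0.1 on a log axis, with J110 in red, SSM3 in blue and a bar at the mean of the 3 libraries of a line. The dashed line is the level of 3 counts in a library, and a reader should see Epcam, Prom1 and Muc1 near or below it in J110 only, Kit and Thy1 below it in both lines, and Cd44 and Cd14 higher in J110.

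The stretch before the start of 3 of these genes is shown because each was low or near 0 in one of the lines and they moved in opposite directions. Epcam and Muc1 were higher in SSM3 and Cd44 was lower. The sequences are from RefSeq in the GRCm38.p6 build, which held a promoter for 5 of the 9 genes, and each gives the 250 bases before the annotated start, 5′ to 3′ on the strand of the gene. Epcam lies at chr17:87635729-87635978 on the forward strand, Muc1 at chr3:89228806-89229055 on the forward strand and Cd44 at chr2:102901666-102901915 on the reverse strand. Capitals mark 4 short motifs searched on both strands, the E-box CAGGTG, the GC box GGGCGG, the TATA box TATAAA and the CCAAT box CCAAT.
Epcam: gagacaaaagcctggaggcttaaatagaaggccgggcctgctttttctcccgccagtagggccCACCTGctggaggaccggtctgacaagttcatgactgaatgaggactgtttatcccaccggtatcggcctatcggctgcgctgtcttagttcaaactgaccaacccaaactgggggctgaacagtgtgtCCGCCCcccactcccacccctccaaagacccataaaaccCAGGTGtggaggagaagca
Muc1: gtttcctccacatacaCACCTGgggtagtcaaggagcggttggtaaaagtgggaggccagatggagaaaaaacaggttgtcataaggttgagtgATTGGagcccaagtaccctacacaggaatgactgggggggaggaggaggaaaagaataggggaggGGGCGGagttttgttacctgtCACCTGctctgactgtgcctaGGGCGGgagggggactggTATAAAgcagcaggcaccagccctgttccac
Cd44: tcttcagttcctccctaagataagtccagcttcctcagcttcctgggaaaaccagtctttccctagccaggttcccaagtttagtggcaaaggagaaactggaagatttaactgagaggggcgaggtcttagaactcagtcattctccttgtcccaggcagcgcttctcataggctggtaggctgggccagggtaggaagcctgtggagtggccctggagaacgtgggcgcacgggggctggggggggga
The E-box occurred 2 times before Epcam and 2 times before Muc1, once before the upstream of 2 starts of Prom1 and 0 times before the other, and 0 times before Cd44 and before both starts of Kit, where 17.2% of 32851 promoters of the same length hold it. The GC box, held by 32.7% of promoters, was found before Epcam and Muc1 but not Cd44. The TATA box (12.4% of promoters) and the CCAAT box (33.8%) were found before Muc1 only among these 3. These matches describe the letters and were not tested for binding.

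Epcam (ENSMUSG00000045394, chromosome 17 of mm10 from 87635979 to 87651129) encodes the epithelial cell adhesion molecule, a homophilic adhesion protein of simple epithelia. SSM3 libraries held 2376, 2404 and 2412 counts of it, and J110 libraries held 2, 1 and 7. All SSM3 libraries were far above all J110 libraries, and the J110 counts were few, most of them in replicate 3. The ratio of summed, scaled counts was 760-fold, with exact 95% counting limits of 413 and 1586. The log2 fold change was 9.52 (SE 0.19, edgeR adjusted p = 2.49e-16), and 141 of the genes tested (1.15%) changed by more. Without J110 replicate 3 the log2 fold change of Epcam was 10.63.

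Prom1 (ENSMUSG00000029086, chromosome 5 from 43993620 to 44102032, reverse strand) encodes prominin-1 (CD133), a pentaspan protein of plasma membrane protrusions. Its counts were 0, 0 and 1 in J110 and 309, 378 and 387 in SSM3, or 75.4 ± 5.91 CPM in SSM3. J110 was thus at or near 0 in each library. With a single J110 count, in replicate 3, the ratio was 1135-fold with exact 95% counting limits of 203 and 44877. The log2 fold change of 9.68 (SE 0.30, edgeR adjusted p = 3.50e-14) depends on that count, and was 11.52 without J110 replicate 3. Limma-voom gave 9.03. Gm16401, which shares 424 exonic bases with Prom1, had at most 1 count in any library. Of the 7726 stretches of 75 bases, the read length, in Prom1 transcripts, 282 also occurred in Clec16a, Gm16401 or 3 other genes, 18 of them among the 4206 in the last 500 bases.

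Muc1 (ENSMUSG00000042784, chromosome 3 from 89229057 to 89233381) encodes the membrane mucin of the apical surface. Its counts were low in both lines, with 3, 1 and 1 in J110 and 28, 26 and 25 in SSM3. The highest J110 library reached 0.578 CPM and the lowest SSM3 library 4.97 CPM, so the lines did not overlap. The ratio was 16.7-fold with exact 95% counting limits of 6.86 and 52.8, and the log2 fold change was 3.96 (SE 0.43, edgeR adjusted p = 3.56e-07). Without J110 replicate 1, the library with 3 counts, it was 4.597.

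Stray counts were looked for in each library on genes active in the opposite line, because Epcam and Prom1 had most of their J110 counts in replicate 3. The genes used had at least 100 CPM on average in the other line and a median of 0 counts in the line itself, so that at most 1 library could hold counts on each. In J110 there were 24 such genes. Replicate 3 had counts on 14 of them, at 0.164% of the SSM3 level, and replicates 1 and 2 on 1 and 2 of them. In J110 replicate 3, Epcam stood at 0.288% and Prom1 at 0.277% of their SSM3 means. Muc1 stood at 10.4%, 3.55% and 3.74% in the 3 J110 libraries. In SSM3 there were 18 such genes, with counts on 17 of them in replicate 2, at 0.458% of the J110 level, and on 0 in replicates 1 and 3. The part of these counts in the J110 values of Epcam and Prom1 was not tested.

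Ly6a (ENSMUSG00000075602, chromosome 15 from 74994877 to 74998031, reverse strand) encodes Sca-1, a small GPI-anchored protein of the LY6 family. In SSM3 its level was 902, 921 and 957 CPM, and in J110 it was 235, 228 and 249 CPM. Both lines expressed it, without overlap. The log2 fold change was 1.97 (SE 0.069, edgeR adjusted p = 1.68e-13), a 3.91-fold difference, and 22.1% of genes tested changed by more. Over the alternatives to the processing it stayed between 1.93 and 2.14. Reads of LY6 genes can be shared between relatives. Of the 1311 different stretches of 75 bases, the read length, in Ly6a transcripts, 83 also occurred in Ly6c1 or Ly6i, but only 1 of the 762 in the last 500 bases did.

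Cd24a (ENSMUSG00000047139, chromosome 10 from 43578284 to 43584265) encodes CD24, a short, heavily glycosylated GPI-anchored protein. In SSM3 it reached 1063, 1194 and 1157 CPM, and in J110 it reached 356, 345 and 384 CPM. The lowest SSM3 library was well above the highest J110 library. The log2 fold change was 1.65 (SE 0.072, edgeR adjusted p = 3.03e-12), or 3.15-fold. Its transcripts shared 27 of 2460 stretches of 75 bases with Gm6212, and 0 in the last 500 bases.

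Cd44 (ENSMUSG00000005087, chromosome 2 from 102811141 to 102901665, reverse strand) encodes the hyaluronan receptor. It was the marker with the largest difference in the other direction, with 12.9, 10.8 and 12.5 CPM in SSM3 beside 714, 676 and 788 CPM in J110. All J110 libraries exceeded all SSM3 libraries. The log2 fold change was -5.90 (SE 0.11, edgeR adjusted p = 9.35e-17), 59.9-fold lower in SSM3, and 7.73% of genes tested changed by more. The SSM3 level was 1.78%, 1.49% and 1.73% of the J110 mean in replicates 1, 2 and 3. Stray counts stood at 0.458% in SSM3 replicate 2, and their part in the Cd44 values was not tested. Because reads come from the 3′ end, which its splice forms share, the standard and variant isoforms of CD44 could not be told apart.

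Cd24a and Cd44 moved in opposite directions in the same libraries, so their ratio needs no scaling of the libraries. The number of Cd24a counts per Cd44 count was 0.499, 0.511 and 0.487 in J110 and 82.3, 110 and 92.3 in SSM3. The ratio was thus below 1 in every J110 library and above 80 in every SSM3 library. On the log2 scale it was -1.003 ± 0.034 in J110 and 6.56 ± 0.21 in SSM3 (SD, n = 3 each), a difference of 7.56 (the lines did not overlap in 3 libraries against 3). The absolute value depends on how well each 3′ end was captured, and only its change between the lines is read here.

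Cd14 (ENSMUSG00000051439, chromosome 18 from 36725067 to 36726798, reverse strand) encodes the GPI-anchored co-receptor for lipopolysaccharide, known from monocytes and from luminal progenitors. SSM3 libraries held 45, 44 and 27 counts of it, and J110 libraries held 119, 141 and 94. The lines did not overlap, but this was the smallest change among the markers tested. The log2 fold change was -1.52 (SE 0.21, edgeR adjusted p = 5.47e-06), 2.87-fold lower in SSM3, and ranged from -1.68 to -1.28 with each library left out in turn. Of 8 leukocyte markers, 4 had a count in J110, and Ptprc, Itgam and Adgre1 were among those with 0 counts there. The summed level of the list was 29.2 to 36.99 CPM in J110 and 14.7 to 16.99 CPM in SSM3. It was 14.8 to 23.3 CPM and 1.19 to 2.004 CPM without Csf1r, which shares 873 exonic bases with Hmgxb3 and had nearly the same counts. Cd68 made up most of the rest in J110, with 115, 95 and 70 counts. The part of such cells in the Cd14 values was not tested.

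Kit (ENSMUSG00000005672, chromosome 5 from 75574916 to 75656722) encodes the receptor for stem cell factor. It had 0 counts in all 6 libraries, which allows up to 3 counts, or from 0.578 to 0.668 CPM, in a library. Thy1 (ENSMUSG00000032011, chromosome 9 from 44043384 to 44048579) had 0 counts in 5 libraries and 1 count in SSM3 replicate 3. Both transcripts were below the floor of 3 counts in every library. Of 5 mast cell markers, which accompany Kit in tissue, Cpa3, Mcpt4, Tpsb2 and Ms4a2 had 0 counts in every library. Of 6 fibroblast markers, which accompany Thy1, Col1a2 and Lum had 0 counts in every library, and 3 were above the floor in a J110 library. Col1a1 had 5, 6 and 5 counts in J110 and 0 in SSM3, and Col3a1 had 3 counts in J110 replicate 2 and 0 elsewhere. The summed level of that list was 1.54 to 4.38 CPM in J110 and 1336 to 1480 CPM in SSM3, where it was almost all Dcn. These limits cover counting error only, since no molecular identifiers are described for the reads.

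The genes are set beside the markers of the study's flow cytometry, which stained EpCAM, CD49f, Sca-1 and CD49b on cells negative for CD45, CD31 and TER119. Epcam and Ly6a encode 2 of these. Flow cytometry reads protein on single cells and the counts read RNA of whole cultures, so the values were not compared. Itga6, which encodes CD49f, had a mean of 345 ± 7.25 CPM in SSM3 and of 572 ± 16.6 CPM in J110, with SD over 3 libraries, and a log2 fold change of -0.73 (SE 0.065, edgeR adjusted p = 2.87e-08). Itga6 was thus expressed in both lines, whereas Epcam was at or near the floor in J110. Itga2, which encodes CD49b, was almost absent from SSM3, with 0, 1 and 2 counts, and had 378, 342 and 294 in J110. Its ratio was 320-fold, with exact 95% counting limits of 109 and 1553, lower in SSM3, opposite in direction to Ly6a. Among genes of the lineage stains, Ptprc (CD45) had 2 counts in SSM3 replicate 2 and 0 elsewhere, and Pecam1 (CD31) had at most 4 counts in a library.

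**Figure D2:**
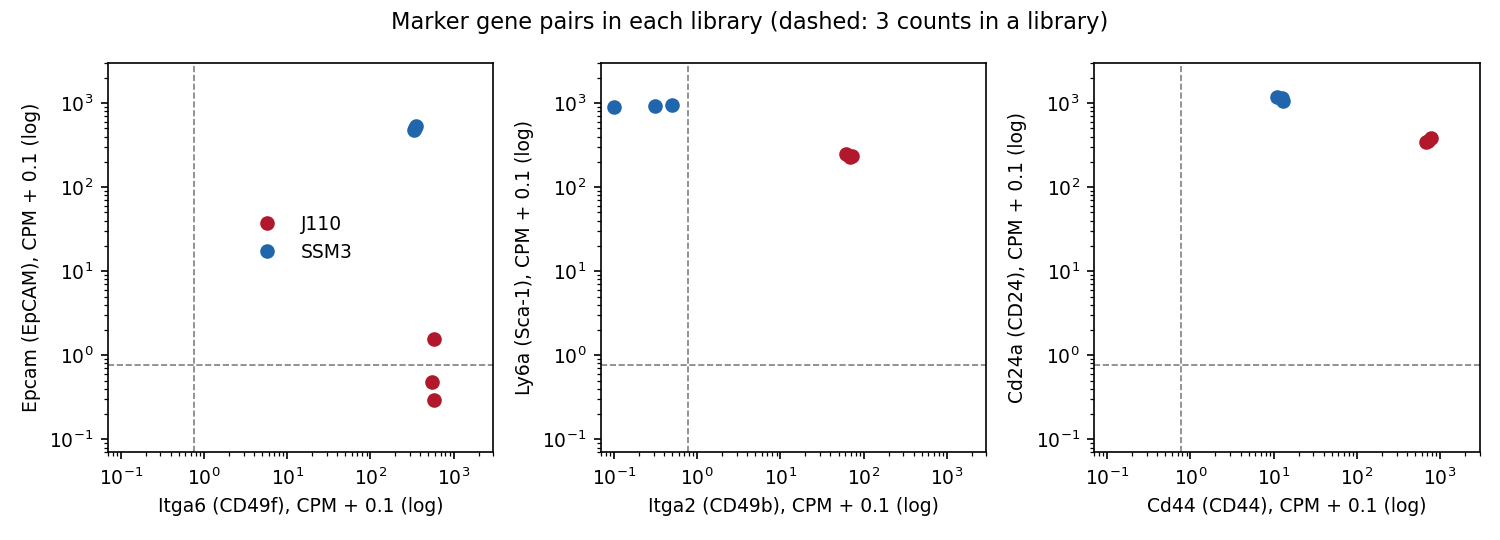
Pairs of marker genes plotted against each other in each library, as CPM plus 0.1 on log axes, with J110 in red and SSM3 in blue: Epcam against Itga6, Ly6a against Itga2, and Cd24a against Cd44. Dashed lines are at 3 counts in a library, and J110 and SSM3 separate along the Epcam, Itga2 and Cd44 axes more than along the Itga6, Ly6a and Cd24a axes.

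As a check of the label, 6 epithelial markers summed to 2677 to 2766 CPM in J110 and 12030 to 13304 CPM in SSM3. Krt8 and Krt18, keratins of simple epithelia, had at least 4223 counts in every library, and in SSM3 Krt8 was higher (log2 fold change 0.83) and Krt18 lower (-0.56). Of the 6 markers, 5 were higher and 1 was lower in SSM3, where 38.6% of all genes tested were higher and 39.2% lower. Krt19 carried most of the sum in SSM3, with a mean of 7412 ± 363 CPM there and 18.6 ± 9.83 CPM in J110 (SD, n = 3 each). Cdh1, Cldn3 and Cldn4 had at most 28 counts in any J110 library. Of 5 endothelial markers, 3 were above the floor of 3 counts in J110, where the list summed to 158 to 181 CPM, nearly all of it Cdh5, with Tie1 at 0, and to at most 0.425 CPM in SSM3. Of 5 erythroid markers, only Hba-a1 exceeded 3 counts in a library, with at most 6, in SSM3.

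Relatives of EpCAM and prominin-1 and proteins that act with EpCAM were listed together, and 7 of 7 were higher in SSM3 (38.6% of all genes tested were), with a median log2 fold change of 2.25. Prom2, the paralogue of Prom1, had 1 count in all J110 libraries together and 166, 132 and 183 counts in SSM3. Cldn7, a claudin that binds EpCAM, also had 1 J110 count, with a ratio of 1629-fold and exact 95% counting limits of 292 and 64373. Prom2 and Cldn7 were, like Epcam and Prom1, near 0 in J110 alone. Proteases that cut EpCAM differed less. Adam17 rose by 0.57 (SE 0.099, edgeR adjusted p = 6.35e-05) and Psen2, a catalytic subunit of γ-secretase, by 2.25 (SE 0.16) on the log2 scale. Adam17 shares 311 exonic bases with Iah1. Fhl2, which binds the released EpCAM tail, rose by 0.95 (SE 0.083).

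Of 13 ligands and partners of CD44, 10 were tested, 2 were higher and 7 lower in SSM3 (38.6% of all genes tested were higher and 39.2% lower), with a median log2 fold change of -1.02 beside -0.014 for all genes tested. Spp1, which encodes the ligand osteopontin, fell from a mean of 445 ± 7.54 CPM to 3.43 ± 0.470 CPM, with SD over 3 libraries. Msn (moesin), a linker of the CD44 tail to actin, fell from a mean of 847 ± 81.2 CPM to 105 ± 9.27 CPM, with SD over 3 libraries. The related linker Ezr (ezrin) had a log2 fold change of -0.27 (SE 0.062, edgeR adjusted p = 0.000915), and with library size only, without TMM, it was -0.093 with an adjusted p of 0.184. Has2, a hyaluronan synthase, fell by 1.21 on the log2 scale. Cemip2, which cleaves hyaluronan at the cell surface, rose by 2.02 and Adam10, a sheddase of CD44, by 1.32. Hyal2 was at 0.0090 (edgeR adjusted p = 0.949).

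**Figure D3:**
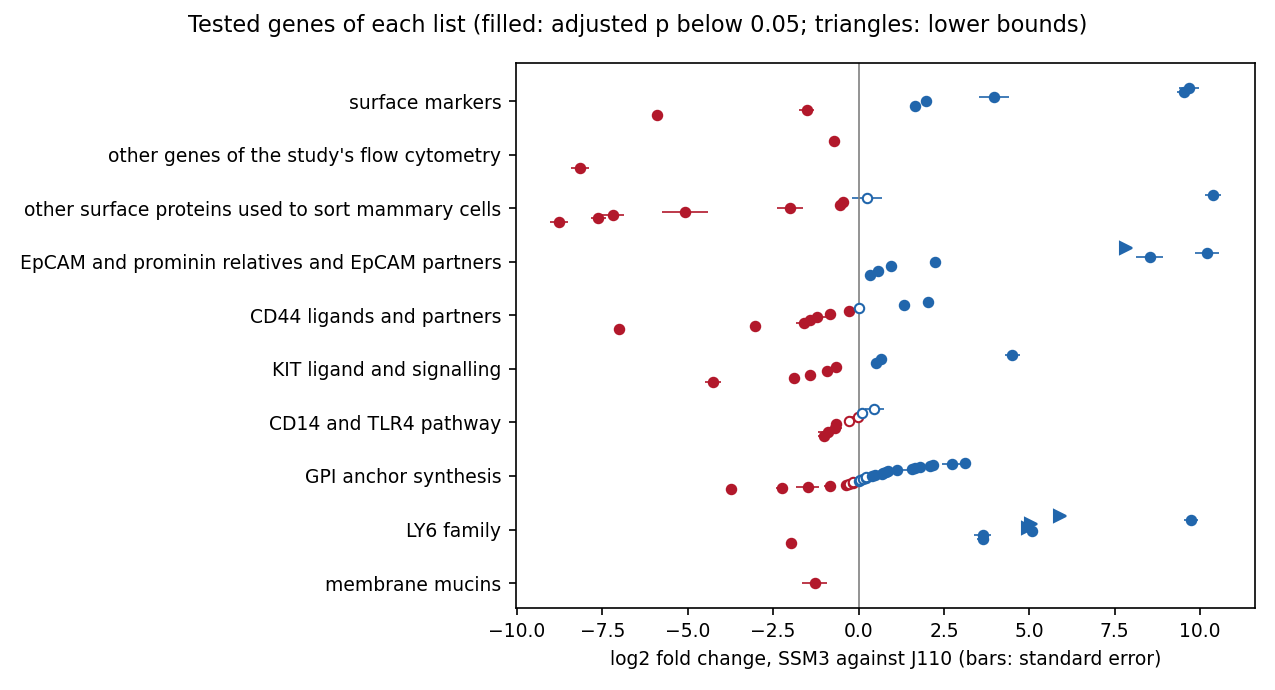
Log2 fold change, SSM3 against J110, of each tested surface marker and of the tested genes of 9 lists of related genes. Bars are the back-calculated SE, and colours are blue for higher and red for lower in SSM3. Filled points have an adjusted p below 0.05, triangles are lower bounds for genes with 0 counts in J110, and a reader should see all 7 EpCAM and prominin relatives and partners on the right and 7 of 8 LY6 genes on the right.

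Other surface proteins by which mammary cells are sorted went mostly the other way from Epcam. Of 14 listed, 9 were tested, 1 was higher and 7 were lower in SSM3 (39.2% of all genes tested were lower). Cd200 was the one that rose, with 0, 0 and 4 counts in J110 and 1755, 1935 and 1810 in SSM3, so all its J110 counts fell in replicate 3. Procr, a marker of a mammary stem cell fraction, had 685, 731 and 607 counts in J110 and 0, 4 and 0 in SSM3, all in replicate 2. Lgr6 (383, 396 and 340 against 2, 2 and 1 counts) and Tspan8 (181, 179 and 163 against 2, 1 and 0 counts) were likewise almost absent from SSM3. Itgb1 (CD29), the partner of both α integrins above, differed much less, with a log2 fold change of -0.47 (SE 0.071, edgeR adjusted p = 1.45e-05), and Alcam was at -0.54 (SE 0.083). Itgb3 (CD61) fell from a mean of 6.07 ± 2.33 CPM to 1.49 ± 0.478 CPM, with SD over 3 libraries. Cd55 was tested and not called, at 0.24 (edgeR adjusted p = 0.628). In each of Lgr5, Ngfr and Pdgfrb no library had more than 4 counts.

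Although Kit itself had no count, its ligand and signalling partners were expressed. Of 8 genes listed, 3 were higher and 5 lower in SSM3, where 77.9% of all genes tested were called, and the median log2 fold change was -0.79 beside -0.014 for all genes tested. Kitl, which encodes stem cell factor, had a mean of 83.2 ± 3.01 CPM in SSM3 and of 132 ± 4.86 CPM in J110, with SD over 3 libraries, and changed by -0.66 on the log2 scale (SE 0.081, edgeR adjusted p = 1.28e-06). A pair of signalling genes differed most and in opposite directions. Lyn, a SRC family kinase, fell from 29.9 ± 2.63 to 1.54 ± 0.607 CPM, and Ptpn6, the phosphatase SHP-1, rose from a mean of 1.26 ± 0.257 CPM to 29.3 ± 2.82 CPM, with SD over 3 libraries. Grb2, an adaptor, rose by 0.65 (SE 0.082).

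In the pathway of CD14, 8 of 11 genes were tested, 0 were higher and 4 lower in SSM3, and 4 were not called, so 4 of 8 were called where 77.9% of all genes tested were. Tlr4, the signalling receptor, fell from a mean of 17.1 ± 1.28 CPM to 8.53 ± 1.72 CPM (edgeR adjusted p = 0.000112), in the same direction as Cd14. Ly96 (MD-2), its co-receptor, fell by 0.89 (SE 0.29, edgeR adjusted p = 0.0104), although DESeq2 gave an adjusted p of 0.0698. Irak1, a kinase downstream, fell by 0.65 (SE 0.085). The adaptor Tirap, which shares 39 exonic bases with Srpr, was at 0.086 (edgeR adjusted p = 0.589). Lbp, Tlr2 and Ticam2 had no more than 3 counts in any library.

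Ly6a sits in a cluster of LY6 genes on chromosome 15. Of 18 LY6 relatives listed, 8 were tested, and 7 were higher and 1 lower in SSM3, where 38.6% of all genes tested were higher and 39.2% lower. The 7 include Slurp1, which shares exons with Them6. The median log2 fold change of the 8 tested was 7.28, or 4.99 with genes that had 0 counts in J110 set at their lower bound. Ly6d had 1, 4 and 10 counts in J110 and 3514, 4132 and 4721 in SSM3, and most of the J110 counts were in replicate 3. Its ratio was 871-fold, with exact 95% counting limits of 528 and 1557. Ly6c1, the closest tested relative by shared stretches of sequence, rose from a mean of 17.6 ± 2.43 CPM to 590.2 ± 4.82 CPM, with SD over 3 libraries, a log2 fold change of 5.06 (SE 0.097), larger than that of Ly6a. Lypd3, a relative that lies elsewhere, had 0 counts in J110 and was at least 59.5-fold higher in SSM3. Ly6e went the other way, from 554 ± 39.4 to 140 ± 17.6 CPM, with SD over 3 libraries, a log2 fold change of -1.99 (SE 0.090, edgeR adjusted p = 4.98e-12).

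Within 500 kb on either side of the Ly6a start, 50 genes were counted, 10 were tested, and 9 of these, Ly6a itself among them, were higher and 1 lower in SSM3, where 38.6% of all genes tested were higher. The single gene that fell was Ly6e, whose start lies 43.0 kb from that of Ly6a, between Ly6a and a group of genes that rose, from Jrk to Ly6k. Ly6k had 0 counts in J110 and was at least 30.8-fold higher in SSM3. Slurp1 shares 322 exonic bases with Them6 and had nearly the same counts in each library, so these are not separate measurements. Gm17189, another of the 9, shares 395 exonic bases with Ly6k. The window was chosen after the values were seen.

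**Figure D4:**
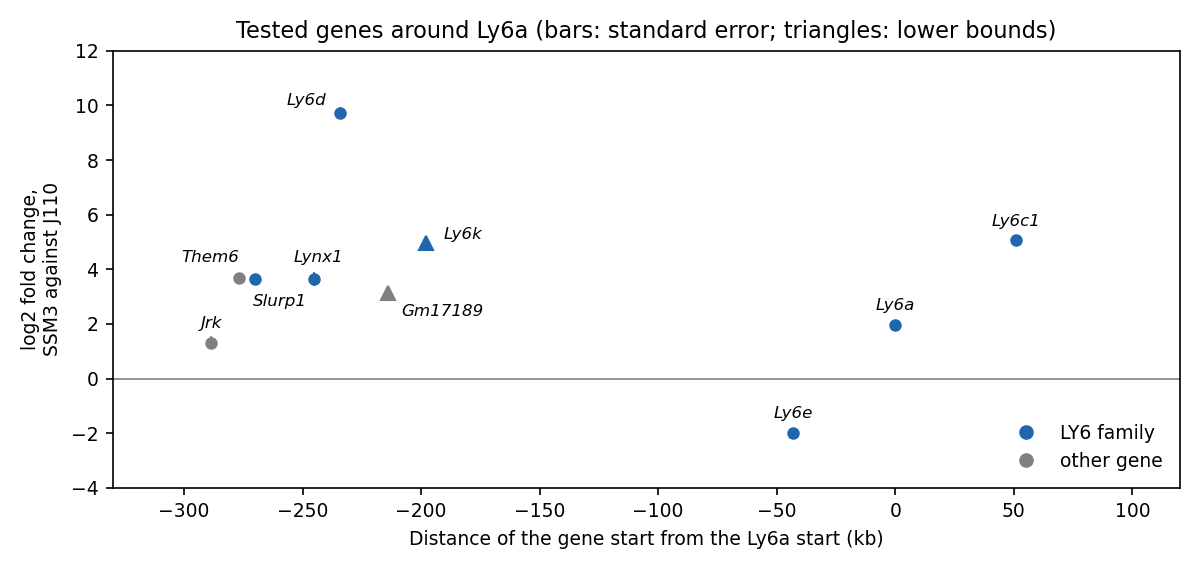
Log2 fold change, SSM3 against J110, of the 10 tested genes within 500 kb of the Ly6a start. The horizontal axis is the distance of their starts from that of Ly6a in kb. LY6 family genes are blue, other genes grey, bars the back-calculated SE and triangles lower bounds. Ly6e lies below 0 and the other 9 genes above it.

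Genes that build and attach the GPI anchor, on which Sca-1, CD24, CD14 and THY1 depend, were all expressed. All 27 listed were tested, 14 were higher, 5 lower and 8 not called, so 19 of 27 were called where 77.9% of all genes were. Their median log2 fold change was 0.41. Gpaa1, a subunit of the transamidase that attaches the anchor, rose from 39.1 ± 2.82 to 135 ± 10.8 CPM, and Dpm3, a subunit of the mannose donor synthase, from 37.1 ± 1.33 to 169 ± 15.6 CPM, with SD over 3 libraries. Pgap1, which removes an acyl chain from the attached anchor, fell from a mean of 46.8 ± 0.155 CPM to 3.52 ± 0.520 CPM, with SD over 3 libraries. Pigh was higher by 3.10 on the log2 scale, but it shares 992 exonic bases with Plekhh1, which had nearly the same counts. Without genes that share exons with a gene of more counts, 20 of the list were tested, and 11 were higher and 3 lower.

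Of 6 membrane mucins related to Muc1, 5 had at most 3 counts in every library. Muc16 fell from a mean of 3.46 ± 0.968 CPM to 1.42 ± 0.397 CPM, with SD over 3 libraries, a log2 fold change of -1.28 (SE 0.37, edgeR adjusted p = 0.00490). Its direction was opposite to that of Muc1.

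For each tested marker, the genes with the most similar levels over the 6 libraries were found by Euclidean distance in log2 CPM, as a description. Nearest to Epcam were Cldn4 (distance 0.62) and Igf2 (1.04). Nearest to Prom1 were Mycl (0.137) and Snrpn (0.295), and to Muc1 L1cam (0.227) and Mfap3l (0.665). For Cd44 the nearest were Cadm1 (1.19) and Cpe (1.28), and for Cd14 Magi1 (0.418) and Dennd4c (0.491). Cd24a lay nearest to Cox8a (0.290) and Cox6c (0.309), and Ly6a to Cox4i1 (0.335) and Sae1 (0.411). With 2 groups of libraries, such a distance reflects little beyond the mean level in each line.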

How the data were processed

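The 3′ ends of RNA from 3 J110 and 3 SSM3 cultures were sequenced. After adapter trimming, the authors used HISAT2 (version 2.0.4) for mapping to mm10 and featureCounts of Subread (version 2.0.0) for counting per gene, and deposited raw counts without normalisation. The counting annotation, strand setting and treatment of reads over several genes are not given in the sources used here. Groups and replicates came from the sample titles. Of the identifiers, 52489 (99.7%) matched GENCODE M21 (GRCm38, mm10), which gave symbols, positions and exon overlaps.

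Low counts were removed by filterByExpr, library sizes were corrected by TMM factors, and edgeR's quasi-likelihood test compared the lines (edgeR 4.0.16, limma 3.58.1, R 4.3.3). Library sizes were sums over all genes. At these depths 3 counts are at most 0.668 CPM. A line with 0 counts on a gene was set to 3 counts per library for lower bounds, and few counts were given as ratios with exact binomial limits. Replicates of a line differed by more than sampling noise (chi-square per degree of freedom from 2.21 to 5.62). The median log2 fold change of genes tested was -0.014 with TMM and 0.16 with library size only. On simulated counts of 11998 genes, the test recovered 90 of 99 genes changed by 1 and 100 of 100 changed by 2 on the log2 scale. Of 199 calls, 9 (4.52%) were unchanged genes. The simulation changed few genes, equally often up and down, and gave every gene the same dispersion. In the data 77.9% of genes tested were called, so these shares do not measure how the test did on them.

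The markers and lists were chosen with earlier results of these data known. Named genes are the markers, the flow cytometry genes, in each list the 2 with the highest mean and the 2 with the largest change, the 2 nearest to each marker, genes that share exons or sequence with a marker, and cell type markers. The other genes named from a list, and those around Ly6a, were named after their values were seen. The alternatives left out each library in turn, took the replicate number as a block, changed the scaling, the filter or the gene set, or used limma-voom or DESeq2 (version 1.42.0). Some items, including part of the genotype of SSM3 and some genes of the lists, are not reported here by name.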

Additional observations from a re-analysis of the deposited data

How the results depend on the processing

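All 7 tested surface markers kept their direction and their adjusted p below 0.05 under all 14 alternatives (98 of 98 values). The alternative without genes that share exons with a gene of more counts dropped genes from the main fit without refitting. Its values for the markers were thus the same by construction. With each library left out in turn, the log2 fold changes ranged from 9.08 to 10.63 for Epcam, 9.20 to 11.52 for Prom1, 3.70 to 4.597 for Muc1, 1.93 to 1.99 for Ly6a, 1.61 to 1.71 for Cd24a, -5.96 to -5.83 for Cd44 and -1.68 to -1.28 for Cd14. With the replicate number as a block, all 7 were called, with log2 fold changes of 9.52 for Epcam and -5.91 for Cd44, and the number of all genes called was 9481 in place of 9566. The labels do not say that equal numbers mark a shared culture or day, and deviations of same-numbered libraries correlated at 0.012, 0.015 and 0.027, so the numbers were not taken as pairs, although each library correlated best with its own number. Of the related genes named, 3 that were not called changed sign in 5 fits that left out a library. Hyal2 turned to -0.034 without J110 replicate 3, -0.0051 without SSM3 replicate 1 and -0.0020 without SSM3 replicate 3 (range -0.034 to 0.047), Cd55 to -0.14 without J110 replicate 3 (range -0.14 to 0.47) and Tirap to -0.037 without J110 replicate 2 (range -0.037 to 0.21). Ezr with library size only and Ly96 with DESeq2 lost their calls, and the cause was not tested. The CD14 pathway list gained 1 higher gene with library size only. At these depths a library with 0 counts of a gene allows up to about 0.6 CPM, or 3 counts, and Kit and Thy1 in both lines and Prom1 and Muc1 in J110 had no more than 3 counts in any library. Epcam was above that level in J110 replicate 3 alone.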
